A study of Mus musculus with 4 samples.

Results

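Isolated CCGG sites in the CCGG-poor megabases of the mouse autosomes were examined in embryonic stem cells with an active and an inactive Zscan4c promoter. A site belonged to this group when no other CCGG lay within 500 bp, when its 1 Mb bin held 100 to 399 CCGG positions, and when it lay more than 10 kb from any dense site, meaning a CCGG with 10 or more CCGG within 500 bp. Position alone chose the sites, and 88055 of the 1594137 CCGG positions met the rule, 5.52% of them. They lay in 546 bins, 22.6% of the 2417 autosomal bins with CCGG. Another 115 sites met the spacing rules in 5 bins with fewer than 100 CCGG and were left out.

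The cells were MC1-ZE7, a single mouse embryonic stem cell line of strain 129S6/SvEvTac at passage 31, grown with leukemia inhibitory factor and without feeder cells. Both fractions carry a reporter in which the promoter of Zscan4c drives the fluorescent protein Emerald, and they were separated by sorting on Emerald fluorescence. DNA of the Emerald-high and of the Emerald-negative fraction was cut with HpaII or with MspI and sequenced as HELP tags, short genomic sequences next to each cut. Each of these 4 combinations had 1 library, so no difference below has a replicate check, and every interval (95%) covers counting error only.

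HpaII is blocked by methylation of the inner CG of its target CCGG, whereas MspI, which has the same target, is not. The HpaII/MspI ratio of tags therefore rises as methylation falls. Outside CpG islands, most CG dinucleotides of mammalian genomes are methylated, and CG-poor megabases are generally poor in genes and islands. Zscan4 genes mark a transient state of embryonic stem cells with features of the earliest embryo, and the comparison of the fractions asks whether DNA methylation differs in that state. No genome of build mm9, the build of these positions, was used here, so sites are given by position without neighbouring sequence or gene names.

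Tag depth was low at single sites. The libraries held 5662614 (Emerald-high HpaII), 9535691 (Emerald-negative HpaII), 9372711 (Emerald-high MspI) and 9307616 (Emerald-negative MspI) tags in all. The median member had 1 Emerald-high and 0 Emerald-negative HpaII tags, and 2 tags in each MspI library. No tag in any library was seen at 30.6% of members, against 17.6% of the 434585 sites that met the same spacing rules in bins of 400 or more CCGG, which serve as the comparison set. Members stood farther from their nearest CCGG (median 1639 bp, against 1095 bp) and from the nearest dense site (median 239585 bp, against 88951 bp). Tags shared among several positions, seen as fractions of a tag, occurred at 2.36% of members and at 2.78% of the comparison set.

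A single member held a large part of the MspI tags. The site at position 98502951 on chromosome 2 had 18114.5 Emerald-high and 11955.5 Emerald-negative HpaII tags, and 346952 Emerald-high and 320490.5 Emerald-negative MspI tags. That was 45.0% and 42.1% of all MspI tags of the members, but 7.44% and 4.03% of their HpaII tags. Its HpaII/MspI ratio, on tags scaled to library totals, was 0.086 for Emerald-high and 0.036 for Emerald-negative cells, far below the members as a whole. The next most tagged member, on chromosome 4 at 78419872, had whole tags and was cut strongly in both fractions, with 884 and 1553 HpaII tags beside 585 and 558 MspI tags in Emerald-high and Emerald-negative cells. The third, on chromosome 8 at 105200876, and the 2 after it, on chromosome 1 at 85129122 and 85007725, held shared tags. Their Emerald-high and Emerald-negative HpaII/MspI ratios were 0.24 and 0.095 on chromosome 8 and, with equal tags at both positions, 0.44 and 0.25 on chromosome 1. Because of the chromosome 2 site, values below are given without it unless stated, which leaves 88054 members.

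HpaII cutting of the members was higher in Emerald-high than in Emerald-negative cells. They held 3.98% of Emerald-high HpaII tags (225232 tags) and 2.98% of Emerald-negative HpaII tags (284405 tags), and 4.52% and 4.74% of the MspI tags of the same fractions. The HpaII/MspI ratio was 0.88 in Emerald-high cells, against 0.63 in Emerald-negative cells, a log2 difference of 0.48 (0.47 to 0.49). The HpaII libraries alone differed by 0.42 (0.41 to 0.42) and the MspI libraries by -0.07 (-0.07 to -0.06), so the 2 enzymes moved in opposite directions. With the chromosome 2 site included, the ratios were 0.52 and 0.38, the HpaII/MspI difference 0.46 (0.45 to 0.47), the HpaII difference 0.47 and the MspI difference 0.01. All values are relative to library totals. Scaled to dense sites, the HpaII/MspI difference of all members was 1.18, so its size depends on which sites are taken as level. Scaled to library totals, dense sites themselves moved the other way, by -0.72. They held 18.2% of Emerald-negative and 13.2% of Emerald-high HpaII tags. Isolated sites of all chromosomes and bins, the chromosome 2 site among them, stood at 0.48, beside 0.46 for the members with that site. The part of the dense sites' lower share in the members' difference was not tested.

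Without the chromosome 2 site, in both fractions the members were cut more often, relative to MspI, than isolated sites of the richer megabases, while the difference between the fractions was slightly smaller. The comparison set had HpaII/MspI ratios of 0.74 for Emerald-high and 0.51 for Emerald-negative cells. Members exceeded it by a log2 value of 0.26 (0.25 to 0.27) for Emerald-high and 0.30 (0.29 to 0.31) for Emerald-negative cells. This turns round when the chromosome 2 site is kept: the pooled members then lay below the comparison set, by -0.49 and -0.43 in the same fractions, so the direction of the level rests on leaving that site out. The comparison set's Emerald-high minus Emerald-negative difference was 0.52, and members minus comparison set came to -0.04 (-0.05 to -0.03). With the chromosome 2 site included it was -0.06 (-0.07 to -0.05). In the HpaII libraries alone the members' difference was not smaller but larger, by 0.02 (0.01 to 0.03), since the MspI libraries differed less at members (-0.07) than in the comparison set (-0.13).

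Averaged over all sites, untagged ones included, the higher ratio of the members went with fewer MspI tags and nearly equal HpaII tags. Sites without a tag in any library, 30.6% of members and 17.6% of the comparison set, lower these averages. At like MspI tags, members held more HpaII tags in most classes. Members averaged 2.56 Emerald-high and 3.23 Emerald-negative HpaII tags per site, and the comparison set 2.52 and 3.23. MspI tags per site averaged 4.81 (Emerald-high) and 5.01 (Emerald-negative) at members, and 5.68 and 6.17 in the comparison set. No MspI tag, or less than 1 in the libraries together, was seen at 33.0% of members and at 19.5% of the comparison set, and such members had 0.075 Emerald-high and 0.068 Emerald-negative HpaII tags per site, fewer than the 0.094 and 0.109 of such comparison sites. With 80 or more MspI tags, too, the 130 members had fewer, 39.9 and 54.6 HpaII tags, against 41.9 and 55.0 at 678 comparison sites. This class has no upper end, and its MspI tags per site and library averaged 68.1 at members and 79.6 at comparison sites. Relative to MspI its members were cut more, with ratios of 0.99 and 0.77, against 0.88 and 0.67. In the 5 classes between, members held more HpaII tags in both fractions. With 10 to 19 MspI tags in the libraries together, 17013 members averaged 3.69 Emerald-high and 4.86 Emerald-negative HpaII tags, and 101482 comparison sites 3.05 and 4.09. With 20 to 39 MspI tags the averages were 6.36 and 7.92 at 13347 members, and 5.10 and 6.29 at 78908 comparison sites. With 40 to 79 they were 11.1 and 12.9 at 2670 members, and 8.97 and 10.3 at 16028 comparison sites.

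Along the number of CCGG per megabase, the level of HpaII cutting was lowest in the middle of the range and higher toward both ends, with a peak at 250 to 300. Isolated sites over 10 kb from dense sites had Emerald-high and Emerald-negative ratios of 0.88 and 0.65 in bins of 100 to 250 CCGG, 0.98 and 0.73 in bins of 250 to 300, 0.94 and 0.68 in bins of 300 to 350, and 0.81 and 0.56 in bins of 350 to 400. Each class leaves out its upper end. The lowest ratios of the 11 classes, 0.68 and 0.45, stood in bins of 600 to 700 CCGG. Bins of 1200 or more returned to 0.93 and 0.73. The difference between the fractions ran the other way, from 0.44 (0.35 to 0.53) in bins of 100 to 250, 0.42 (0.39 to 0.45) in bins of 250 to 300 and 0.52 (0.51 to 0.54) in bins of 350 to 400 to 0.59 (0.58 to 0.60) in bins of 600 to 700, and down to 0.36 (0.35 to 0.38) in the richest bins. Members as a whole thus lay 0.11 (0.09 to 0.12) below the bins of 600 to 700 and 0.12 (0.10 to 0.14) above the richest bins in this difference. The MspI difference also varied over the classes, between -0.04 in bins of 250 to 300 and -0.16 in bins of 1000 or more, and their part in the curve was not tested. At the bin limit of the rule there was no step. Bins within 20 CCGG below the limit of 400 stood at 0.55, and bins within 20 CCGG above it at 0.55. Their Emerald-negative ratios were 0.53 on both sides. At the spacing limit the difference was 0.54 (0.49 to 0.59) at sites just inside and 0.44 (0.39 to 0.48) just outside. Emerald-high and Emerald-negative ratios there were 0.88 and 0.61 inside, and 0.86 and 0.63 outside. At the 10 kb limit the difference was 0.47 (0.35 to 0.59) inside and 0.48 (0.35 to 0.61) outside. The same ratios were 0.97 and 0.70 inside that limit, and 0.83 and 0.59 outside.

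**Figure D1:**
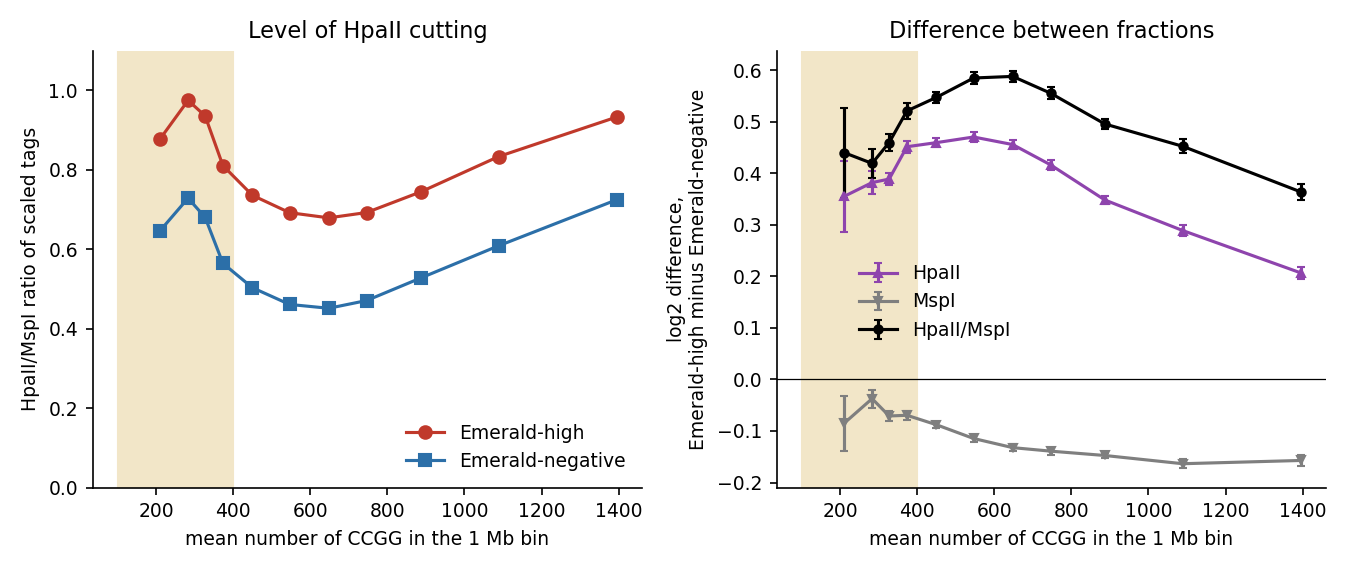
HpaII/MspI ratio of scaled tags (left) and log2 difference between the fractions with 95% counting intervals (right), against the mean number of CCGG in the 1 Mb bin, for isolated sites over 10 kb from dense sites without the chromosome 2 site. The shaded range holds the members, where the ratio reached 0.98 for Emerald-high and 0.73 for Emerald-negative cells and the HpaII/MspI difference stayed between 0.42 and 0.52.

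Distance to the nearest CCGG went with little change in the level of the members, and with more in the richer megabases. Members with their nearest CCGG at 500 to 1000 bp (each class leaves out its lower end) had ratios of 0.89 for Emerald-high and 0.63 for Emerald-negative cells, and those over 8000 bp from it 0.91 and 0.69. In the comparison set the ratios were 0.83 and 0.60 at 500 to 1000 bp and 0.64 and 0.42 at 2000 to 4000 bp. The excess of members over the comparison set in Emerald-negative cells was therefore 0.08 (0.06 to 0.09) on the log2 scale at 500 to 1000 bp and 0.52 (0.50 to 0.53) at 2000 to 4000 bp. In Emerald-high cells it was 0.10 (0.09 to 0.12) and 0.43 (0.42 to 0.45).

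The difference between the fractions also depended on spacing. For members it was 0.49 (0.47 to 0.51) at 500 to 1000 bp, 0.50 (0.48 to 0.52) at 2000 to 4000 bp and 0.40 (0.35 to 0.45) over 8000 bp. Members minus comparison set was 0.02 (0.00 to 0.05) at 500 to 1000 bp, -0.08 (-0.10 to -0.06) at 1000 to 2000 bp, -0.12 (-0.16 to -0.09) at 4000 to 8000 bp and -0.18 (-0.26 to -0.10) over 8000 bp. The small pooled gap of -0.04 joins these classes, of which the closest spacing, 26308 members but 194421 comparison sites, carries the opposite sign. Distance to the nearest dense site gave a narrower range: the members' difference was 0.51 (0.45 to 0.56) at 10 to 20 kb and 0.47 (0.42 to 0.51) over 1 Mb, with Emerald-negative ratios of 0.66 and 0.64. The 4328 members over 1 Mb from any dense site had ratios within the range of the nearer classes in both fractions.

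**Figure D2:**
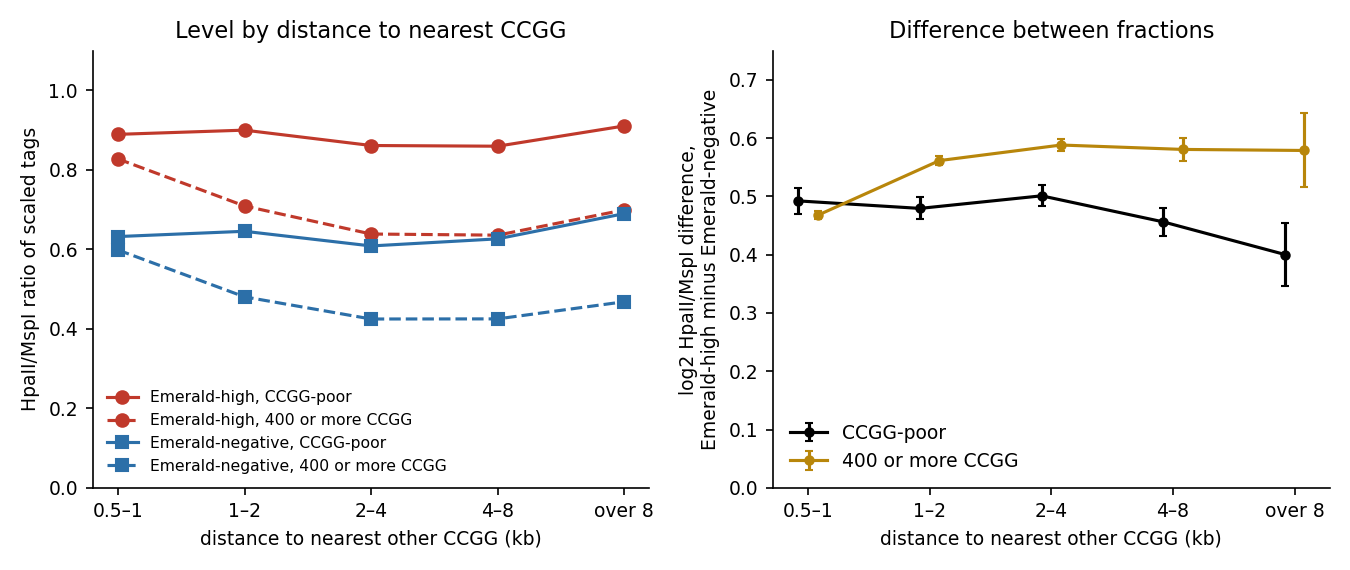
HpaII/MspI ratio (left) and log2 HpaII/MspI difference, Emerald-high minus Emerald-negative, with 95% counting intervals (right), by distance to the nearest other CCGG. Members (solid lines, left) keep ratios between 0.86 and 0.91 for Emerald-high and between 0.61 and 0.69 for Emerald-negative cells, while comparison sites (dashed) fall to 0.64 and 0.42.

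Site scores showed how many members were rarely cut. The score is 100 × (2/π) × arctan of the HpaII/MspI ratio, so 0 means no HpaII tag and 50 equal scaled tags. It was taken at the 11985 members (13.6%) with at least 10 tags in each MspI library, so it says nothing of the others, and the chromosome 2 site is among them. The median score was 33.26 (quartiles 17.1 and 51.8) for Emerald-high and 20.03 (7.73 and 40.2) for Emerald-negative cells. The 70144 covered comparison sites had medians of 24.98 and 11.8. Scores under 20 made up 29.5% of covered members in Emerald-high cells (28.6 to 30.3, exact binomial interval) and 49.2% in Emerald-negative cells (48.3 to 50.1), against 41.0% and 64.7% in the comparison set. Scores between 50 and 80 made up 24.9% for Emerald-high and 15.5% for Emerald-negative cells at members, and 16.0% and 8.90% in the comparison set. Few members scored over 80, with 2.10% for Emerald-high and 1.43% for Emerald-negative cells, close to the 2.20% and 2.01% of the comparison set.

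Most covered members had the higher score in Emerald-high cells. The score was higher there at 8625 (72.0%) and lower at 3079 (25.7%), and the remaining 281 had no HpaII tag in either fraction. The comparison set gave 72.6% and 23.0%. Among members, 2860 (23.9%) scored under 20 in Emerald-negative but not in Emerald-high cells, and 493 (4.11%) the reverse. Both scores were under 20 at 3038 (25.3%). Scores of the fractions correlated with a Spearman rho of 0.73 over these sites, which share their libraries.

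**Figure D3:**
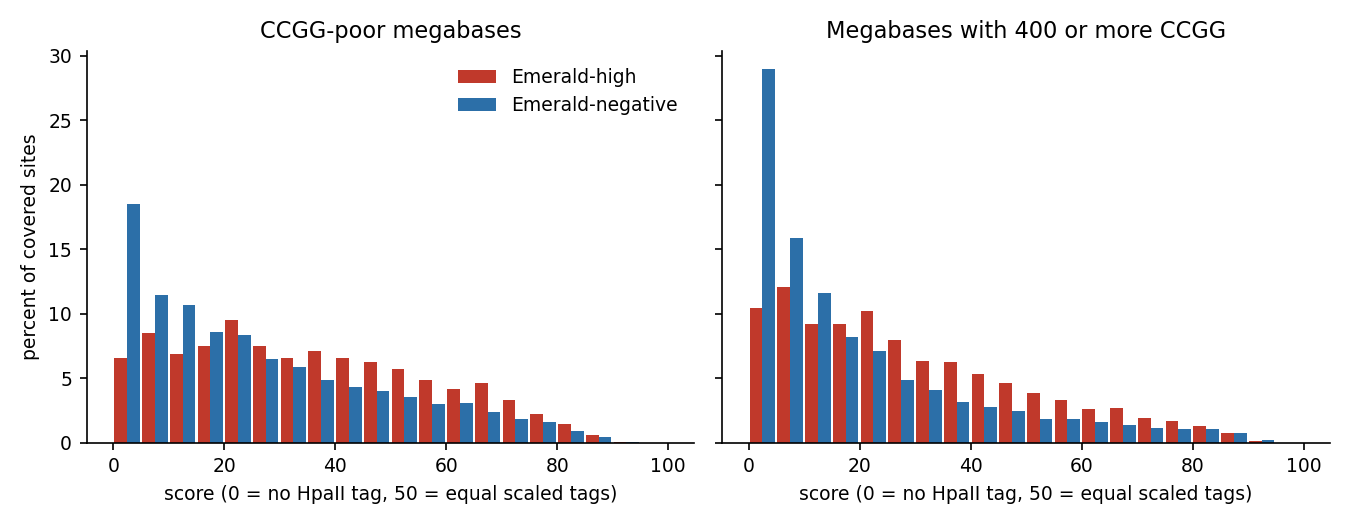
Distribution of site scores, as percent of covered sites per 5 score units, in Emerald-high and Emerald-negative cells for 11985 members (left) and 70144 comparison sites (right). Emerald-negative cells have the larger lowest class in both sets, and members are spread over higher scores, with medians of 33.26 for Emerald-high and 20.03 for Emerald-negative cells.

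Detection over all members, with no depth filter, went the same way. An HpaII tag was seen at 51.5% of all 88055 members in the Emerald-high library, the smaller of the pair, and at 48.9% in the Emerald-negative one. Thinning the Emerald-negative HpaII library to the Emerald-high total lowered its share to 42.2%. At that depth 14.5% of members had HpaII tags in Emerald-high cells alone, and 5.14% in Emerald-negative cells alone. In the comparison set those shares were 19.1% and 6.37%.

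The difference was largest where Emerald-negative cells were rarely cut. To keep sorting and measuring apart, members were sorted by a score from the first part of the tags (Emerald-negative HpaII against both MspI libraries, at least 10 MspI tags) and measured in the second. The 8712 members scoring under 20 differed by 0.86 (0.81 to 0.91), from 8586 Emerald-high and 8293 Emerald-negative HpaII tags. The 2601 members scoring 40 to 60 differed by 0.35 (0.29 to 0.41), and the 282 scoring over 80 by 0.01 (-0.13 to 0.15), where no difference was detectable. Sorting on the second part gave 0.89, 0.36 and 0.20 (0.05 to 0.36), so the last class depends on which part sorts.

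At a like baseline, members and comparison sites differed in opposite directions at the ends of the score range, and at the high end in 1 of the tag parts only. Under a score of 20, members minus comparison set was -0.21 (-0.26 to -0.15) when sorted on the first part and -0.17 (-0.22 to -0.11) on the second. Between 60 and 80 it was 0.08 (-0.0022 to 0.16) and 0.02 (-0.06 to 0.10), so a difference of either sign was not detectable. Over 80 it was 0.02 (-0.13 to 0.17) when sorted on the first part and 0.28 (0.12 to 0.45) on the second, where members changed more. Scores under 20 made up 51.1% of the sorted members and 64.7% of the sorted comparison sites. A shallow class holds sites of different true levels, so an unequal mix within it was not removed.

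The CCGG-poor megabases covered a wide range of levels. Over the 546 bins the Emerald-high ratio ran from 0.44 to 1.98 (median 0.88), and the Emerald-negative ratio from 0.27 to 1.81 (median 0.63). The difference between the fractions had a median of 0.50 (quartiles 0.36 and 0.63) and lay above 0 in 541 bins. Its SD over bins was 0.21, while the median counting error of 1 bin was 0.12. Raised by the overdispersion between the MspI libraries (6.13, over autosomal bins of all CCGG counts), that error is 0.30, larger than the SD. This overdispersion is taken around the library totals, so it includes the common shift of isolated sites between the MspI libraries. That shift had a median of -0.13 in bins of 400 or more CCGG and -0.07 in the CCGG-poor bins. The MspI difference itself had an SD of 0.09 over the 546 bins. Whether the difference spreads beyond library error was therefore not settled. The bins of 400 or more CCGG had an SD of 0.18 with a median counting error of 0.099. Bins keep their place in both fractions, with a Spearman rho of 0.91 between the 2 ratios, and neighbouring CCGG-poor bins resembled each other, with rho of 0.40 (Emerald-high ratio), 0.46 (Emerald-negative ratio) and 0.31 (difference) over 289 adjacent pairs. The MspI difference of neighbours had a rho of 0.06. These correlations describe bins of the same 4 libraries.

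Bins that were cut more in Emerald-negative cells differed less between the fractions. Sorted into 4 equal classes by the Emerald-negative ratio in the first tag part, bins differed in the second part by 0.61 (0.58 to 0.64) in the lowest class and by 0.33 (0.31 to 0.36) in the highest, and the parts exchanged gave 0.65 and 0.35. Fisher's exact test on summed tags, with Benjamini-Hochberg adjustment over all 2417 autosomal bins, called 485 of the 546 CCGG-poor bins (88.8%) higher in Emerald-high cells, against a background of 95.4% of all bins, and 0 lower, against 0.0414%. At an unadjusted p under 0.05, 486 were higher and 0 lower, against 95.5% and 0.0414% of all bins. With a change of at least 1.5-fold, 173 (31.7%) were called, against 40.9% of all bins. The test compares libraries, not conditions, and when counts were divided by that overdispersion it called 65 of the 546 (11.9%) higher, against 33.0% of all bins.

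The largest difference stood on chromosome 2 at 98000001 to 99000000, at 1.22, and rested on the site with most tags: without it the bin had 303 Emerald-high and 404 Emerald-negative HpaII tags and stood at 0.29 (0.01 to 0.56). Next came adjoining bins on chromosome 12. At 15000001 to 16000000 there were 482 Emerald-high and 424.5 Emerald-negative HpaII tags, beside 904.5 and 989.5 MspI tags, which put the log2 difference at 1.07 (SE 0.12) with an adjusted p of 3.0e-18 by the exact test. At 14000001 to 15000000 there were 452 and 387 HpaII tags beside 708 and 728 MspI tags, which put it at 1.03 (SE 0.13) with an adjusted p of 9.2e-15 by the exact test. Bins on chromosome 10 at 46000001, chromosome 15 at 42000001 and chromosome 5 at 12000001 stood at 1.01, 1.00 and 1.00. In these 5 bins outside chromosome 2 the smaller Emerald-high library gave as many HpaII tags as the Emerald-negative one, or more, to within 2 tags.

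The 6 bins at the low end were not called in either direction. Their differences ran from -0.26 (-0.69 to 0.17) on chromosome 1 at 197000001 to 0.02 on chromosome 3 at 77000001. The first is the last, incomplete bin of its chromosome, with 38 members and CCGG positions only up to 197193525. Of the CCGG-poor bins, 11 were the last of their autosome and may count as poor because they are cut short; they held 858 members. On chromosome 6 at 110000001 there were 465 Emerald-high and 709 Emerald-negative HpaII tags beside 688.5 and 558 MspI tags, a difference of -0.15 (-0.38 to 0.08). Chromosome 2 at 176000001, chromosome 4 at 112000001 and chromosome 4 at 92000001 stood at -0.03, -0.03 and -0.01. In these bins and those on chromosomes 6 and 3, scaled HpaII tags (log2 values of 0.07 to 0.18) and MspI tags were both nominally higher in Emerald-high cells. Every HpaII interval there included 0, as did every MspI interval except that on chromosome 6 (0.13 to 0.45).

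Several bins with a difference near 0 were among the most cut. The highest Emerald-negative ratios were 1.81 on chromosome 4 at 78000001 (Emerald-high 1.98), 1.81 on chromosome 1 at 197000001 (Emerald-high 1.51), 1.62 on chromosome 2 at 176000001 (Emerald-high 1.59) and 1.49 on chromosome 4 at 92000001 (Emerald-high 1.48). In the bin at 78000001, the most tagged chromosome 4 site gave 884 of 1234.5 Emerald-high and 1553 of 2032 Emerald-negative HpaII tags. It also gave 585 of 1034 and 558 of 1097 MspI tags. The high level of that bin thus rests largely on 1 site, and its ratios without that site were not computed. At the other end, apart from the chromosome 2 pile-up bin, the Emerald-negative ratio was 0.27 on chromosome 8 at 130000001, with 630 Emerald-high and 615 Emerald-negative HpaII tags, 0.27 on chromosome 1 at 185000001 and 0.27 on chromosome 2 at 48000001. Their Emerald-high ratios were 0.47, 0.44 and 0.50, and their differences 0.81, 0.70 and 0.85.

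Runs of adjacent CCGG-poor bins were cut more the longer they were. The 124 single bins had ratios of 0.80 for Emerald-high and 0.57 for Emerald-negative cells. Bins in runs of 2 or 3 had 0.87 and 0.62, those in runs of 4 to 7 had 0.93 and 0.67, and the 27 bins of the 3 longest runs 1.04 and 0.83. The mean CCGG count of the bins was 344 in single bins and 323 in the longest runs, and its part in these ratios was not tested. The difference between the fractions was 0.33 (0.29 to 0.38) in the longest runs and 0.50 (0.48 to 0.52) in single bins, a gap of -0.17 (-0.22 to -0.12). Runs of 2 or 3 did not differ detectably from single bins, with a gap of 0.00 (-0.03 to 0.03).

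The 3 longest runs lay on chromosomes 14 and 3. On chromosome 14 from 88000001 to 99000000, 1762 members had 5117 Emerald-high and 7124 Emerald-negative HpaII tags, beside 8037 and 8450 MspI tags, giving ratios of 1.05 and 0.82 and a difference of 0.36 (0.29 to 0.43). The run on chromosome 14 from 107000001 to 115000000 had 1284 members, ratios of 1.09 and 0.84 and a difference of 0.38 (0.29 to 0.47). On chromosome 3 from 70000001 to 78000000, 1238 members had ratios of 0.99 and 0.84 and a difference of 0.25 (0.16 to 0.33). In all 3 runs the difference lay below that of the members as a whole and the Emerald-negative ratio above it.

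**Figure D4:**
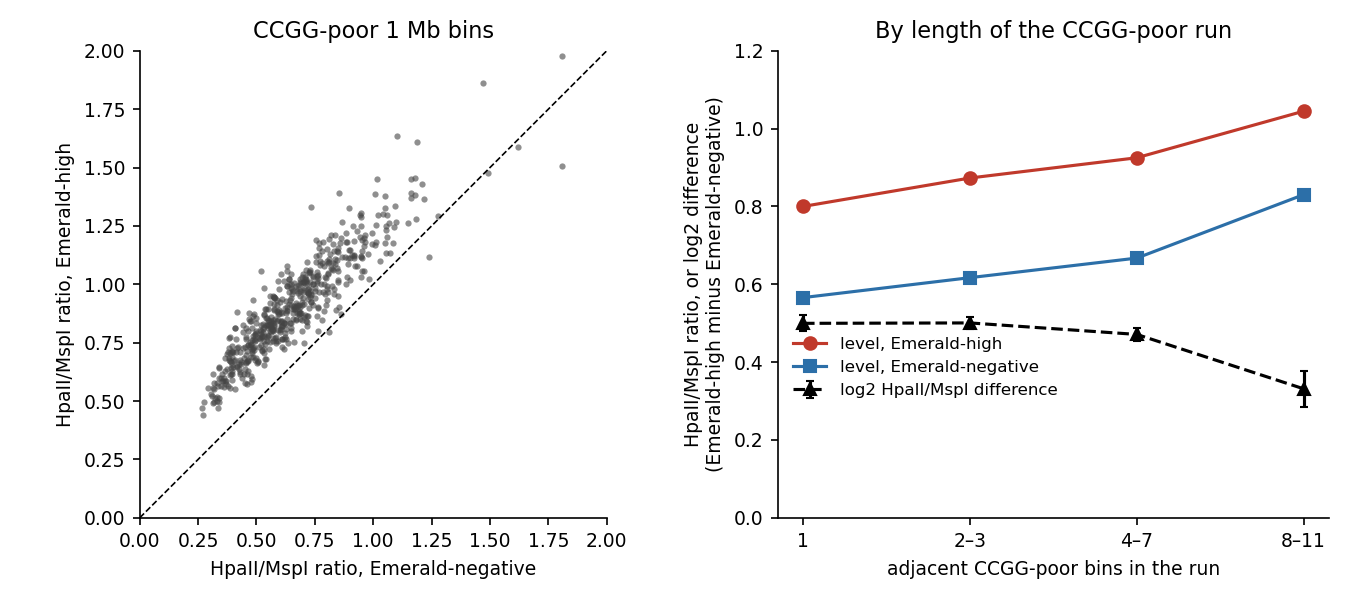
Left, HpaII/MspI ratio of the members in each of 546 CCGG-poor 1 Mb bins, Emerald-high against Emerald-negative cells, with the line of equality and without the chromosome 2 site. Right, ratios in both fractions and log2 HpaII/MspI difference with 95% counting intervals by the number of adjacent CCGG-poor bins. Of the 546 bins, 541 had a difference above 0, and the longest runs have the highest ratios (1.04 for Emerald-high and 0.83 for Emerald-negative cells) and the smallest difference (0.33).

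The autosomes shared the direction. The members' difference averaged 0.49 ± 0.05 (SD over 19 autosomes, which share their libraries) and was above 0 on 19 of 19, from 0.40 on chromosome 17 to 0.58 on chromosome 18. On chromosome 2 it was 0.52 without and 0.77 with the site at 98502951. The HpaII libraries alone gave 0.42 ± 0.05 and the MspI libraries -0.07 ± 0.02. Members minus comparison set averaged -0.04 ± 0.05 and was below 0 on 14 autosomes and above 0 on 5, from -0.16 on chromosome 14 to 0.05 on chromosome 11. The Emerald-high and the Emerald-negative ratio of members exceeded those of the comparison set on 19 of 19 autosomes, chromosome 2 without its most tagged site. The mean log2 excess was 0.25 ± 0.11 for Emerald-high and 0.29 ± 0.15 for Emerald-negative cells, smallest on chromosome 9 (0.04 and 0.02) and largest on chromosome 14 (0.43 and 0.59). CCGG-poor bins made up 11.5% of the bins of chromosome 9 and 31.2% of those of chromosome 3, the extremes among autosomes.

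**Figure D5:**
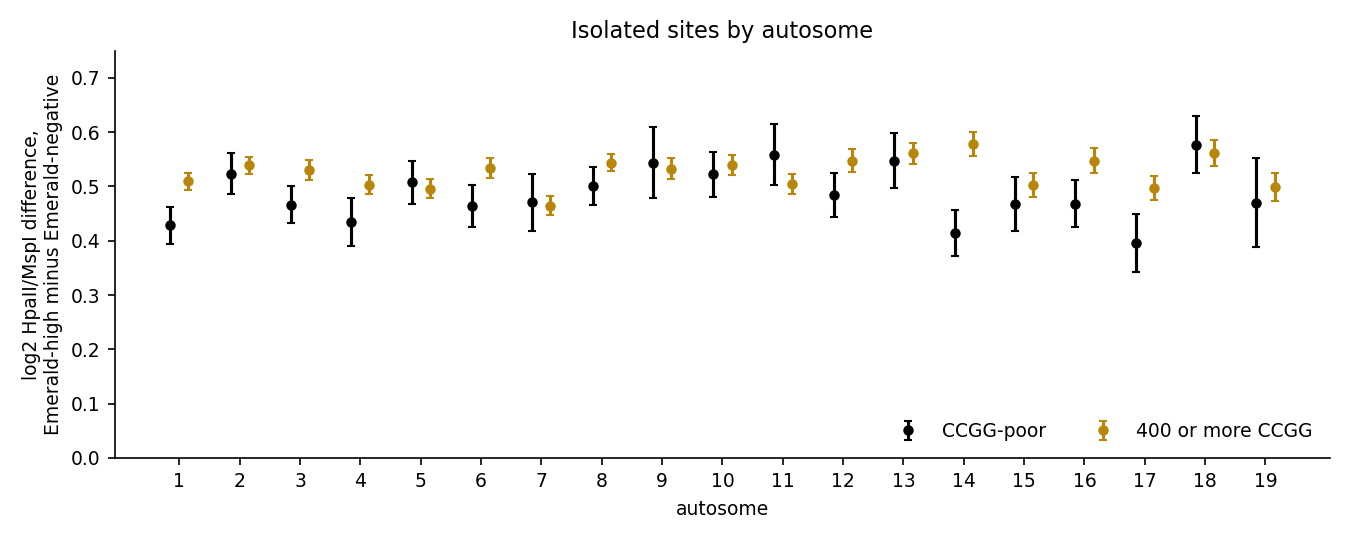
Log2 HpaII/MspI difference, Emerald-high minus Emerald-negative, with 95% counting intervals for members (black) and for isolated sites of bins with 400 or more CCGG (gold) on each autosome, without the chromosome 2 site. Members lie between 0.40 and 0.58, on all autosomes above 0, and below the gold points on 14 of 19.

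Chromosome X, which the rule leaves out, had 7428 sites that met its other terms. Their ratios were 0.90 for Emerald-high and 0.68 for Emerald-negative cells, with a difference of 0.42 (0.37 to 0.46). The autosomal members stood above them by 0.06 (0.02 to 0.11) in this difference. Those X sites had 2.74 MspI tags per site and library, against 4.91 at the autosomal members.

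Single members were rarely called. Fisher's exact test with Benjamini-Hochberg adjustment over 218697 covered sites, and at least a 2-fold change, called 24 of the 11985 covered members (0.200%) higher in Emerald-high cells, against a background of 0.102%, and 0 lower, against 0.0297%. At an unadjusted p under 0.05, 1147 members (9.57%) were higher and 56 (0.467%) lower, against 7.77% and 0.892% of all covered sites and 10.5% and 0.279% of comparison sites. The called members had a median of 13.5 Emerald-high and 2 Emerald-negative HpaII tags. The chromosome 2 site with most tags is 1 of the 24, and without it 23 of 11984 (0.192%) were called. In those 23 the Emerald-high MspI library was also below the Emerald-negative one (median log2 value of -0.78 over the 24), and the part of this in the calls was not tested. With counts divided by the overdispersion between the MspI libraries (1.39), 2 members were called (0.0167%), against 0.016% of all sites: the chromosome 2 site and the site on chromosome 8 at 22965743. A minimum of 5 MspI tags called 11 members, against 0.0258% of all sites, thinning the Emerald-negative HpaII library called 4, against 0.032%, and scaling to dense sites called 682, against 4.15%. Those are 0.0395%, 0.0334% and 5.69% of the members tested.

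The called members with the largest change lay on 4 chromosomes. On chromosome 8 at 22965743 there were 15 Emerald-high and 0 Emerald-negative HpaII tags beside 29 and 36 MspI tags (adjusted p = 0.0011, Fisher's exact test). Against the 3 tags that a count of 0 allows, scaled HpaII tags were 8.42-fold higher in Emerald-high cells. That value takes the Emerald-high count as exact, so it is not a lower limit. On chromosome 14, the site at 116076462 had 10 and 0 HpaII tags, 5.61-fold higher on the same terms, beside 11 and 20 MspI tags. The site at 95689172 had 11 and 0, 6.17-fold higher on those terms, beside 10 and 15. The last of these lies in the longest CCGG-poor run, 1398736 bp from the nearest dense site. Also on chromosome 14, at 113288283, 14 Emerald-high HpaII tags stood against 1 Emerald-negative tag, a scaled ratio of 23.6 (exact interval 3.59 to 997).

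On chromosome 8, 58846425 had 11 and 1 HpaII tags, a scaled ratio of 18.5 (2.69 to 797), and 58138716 had 8 and 1, a ratio of 13.5 (1.81 to 598). Chromosome 10 at 64404582 gave 9 and 1 tags and chromosome 1 at 196535353 gave 13 and 1, with ratios of 15.2 (2.10 to 664) and 21.9 (3.29 to 930). All 8 held whole tags, and the intervals given are wide at this depth.

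Neighbouring members were weakly alike. Over 276 pairs of adjacent covered members 500 to 2000 bp apart, scores correlated with a Spearman rho of 0.19 for Emerald-high and 0.22 for Emerald-negative cells. Over 5725 pairs 10 to 50 kb apart rho was 0.11 and 0.14. The score difference between the fractions had a rho of 0.01 in both classes, at a depth where counting error alone lowers any such value.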

How the data were processed

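HELP tags were counted in 4 libraries, 1 per fraction and enzyme. The authors deposited estimated counts of tags per CCGG position in 2 parts and their sum, not scaled to depth. Positions are of mm9, the one build that the submitters' processing notes name. An aligner and a rule for tags matching several positions were not given in the sources used here. By the files' own headers, totals ranged from 5662614 to 9535691 tags.

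Tags were scaled to library totals. Log2 ratios of summed tags have 95% Poisson intervals and scores exact binomial ones, for counting error only, and tags carry no molecular identifiers. For the exact tests, counts were rounded to whole tags and the null odds ratio was set by the totals. Calls needed an adjusted p under 0.05, and for sites a 2-fold change with a pseudocount of 1. Bins needed 20 tags in each MspI library. Named were the 6 bins with the highest and the 6 with the lowest difference (MspI libraries within 0.5), the 4 with the highest and the 4 with the lowest Emerald-negative ratio, the 8 called sites with the largest change and the 5 most tagged members. When the comparison of Emerald-high with Emerald-negative cells was simulated, the test found 100% of 100 bins changed 2-fold among 2417 bins, and 0% of 100 sites changed 4-fold among 218697 sites. The simulation held counting error alone, few changed features and no 2-fold rule for sites, so it does not give the power of the calls above. The members, sets and tests were chosen with earlier results of these data known. The tools were matplotlib 3.10.9 for plots, scipy 1.17.1 and numba 0.67.0 for tests, and numpy 2.4.6 and pandas 2.3.3 for tables, in Python 3.11.15.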

Additional observations from a re-analysis of the deposited data

Results flagged for a closer look

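At the members without the chromosome 2 site, HpaII and MspI tags moved in opposite directions between the fractions, and the HpaII/MspI log2 difference, Emerald-high minus Emerald-negative, was 0.482. With 1 library a group, the contrast of the enzymes had no test over replicates and was not tested in any other way.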

How the results depend on the processing

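Over the alternatives tried, the members' HpaII/MspI difference stayed above 0 in 15 of 15, from 0.42 (second tag part alone, all members) to 1.18 (scaled to dense sites), and the HpaII difference in 15 of 15, from 0.38 to 0.93. Members minus comparison set stayed below 0, with an interval that excludes 0, in 14 of 15, down to -0.12. Among these, scaling to dense or to autosomal sites cancels in this difference and must return the main value of -0.06, so it was no check. On the first tag part alone members minus comparison set was 0.0071 (-0.0073 to 0.022), with the chromosome 2 site included. Without that site the first part gave -0.02 and the second -0.07, settings chosen after seeing the data. The 485 bins called higher became 173 with a 1.5-fold minimum (31.7%, against 40.9% of all bins) and 65 with overdispersion (11.9%, against 33.0%). The 24 sites called higher became 11 with a minimum of 5 MspI tags (0.0395%, against 0.0258% of all sites). They became 2 with overdispersion (0.0167%, against 0.016%) and 4 with the Emerald-negative HpaII library thinned (0.0334%, against 0.032%). Scaling to dense sites called 682 sites (5.69%, against 4.15%) and 546 bins. A minimum of 20 MspI tags called 34 sites. For the 546 bins and the 34 sites, shares over all features were not computed. The drop in scores under 20 was -19.7 percentage points, -16.8 with a minimum of 5 MspI tags, -23.5 with 20 and -18.2 scaled to dense sites, where the shares were 75.8% for Emerald-high and 94.0% for Emerald-negative cells. No bin or site was called lower under any of them. Depth limits single sites, and 1 library per group leaves library error unmeasured. No paired analysis was possible because each group has 1 library.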
